A study of Mus musculus with 30 samples.

Results

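The Hox cluster genes encode homeodomain transcription factors that give cells their position along the head-to-tail axis. They were followed here in mouse embryonic stem (ES) cells as the cells differentiated, with and without an intact Jmj gene. The set holds every gene whose platform symbol is Hoxa, Hoxb, Hoxc or Hoxd followed by a number, without antisense transcripts. Of 38 such genes, 33 were measured by a probe set of their own, among 18194 genes in all. For a gene with several probe sets, the one with the highest mean log2 value stood for it. Hoxb8 and Hoxd4 were read only by probe sets shared with a neighbouring gene, and Hoxa6, Hoxc11 and Hoxc12 were not analysed here.

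In mammals the genes of a cluster lie in the order of their paralog numbers, and low numbers act toward the head while high numbers act toward the tail. Cells switch them on in about that order, a relation known as collinearity. In ES cells the clusters are held silent by Polycomb complexes, and PRC2, which places a repressive methyl mark on histone H3, is one of them. Jmj, now named Jarid2, encodes a partner of PRC2.

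RNA of null cells, which the labels write as Jmj (-/-) mutant, was compared with RNA of cells with floxed Jmj alleles (Fl/Fl), called wild type in the labels. LIF, the cytokine that keeps mouse ES cells undifferentiated, was withdrawn, and RNA was hybridized to 1 Affymetrix array per sample on days 0, 2, 4, 6 and 8. Null cells were measured on 20 arrays, with 3 at day 0, 2 at day 8 and 5 on each day between, and Fl/Fl cells on 10 arrays, with 2 on every day. The sources used here name neither the parent line nor the clone. Although the arrays are labelled as biological replicates, nothing says that they came from separate cultures, so the p-values cover the spread among these arrays, in part perhaps technical.

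Some features of the arrays bear on the Hox values. Jarid2 itself read 4082, 2943 and 2872 in null and 3335 and 3340 in Fl/Fl at day 0, so 2 null arrays lay below and 1 above both Fl/Fl arrays. Where its probe set lies relative to the deleted part is not given, so it does not check the labels, and genotypes are used as labelled. By Eif2s3y, a gene of the Y chromosome, the null arrays fell into sets of 11 arrays with high values (594 to 981), 5 with middle values (217 to 365) and 4 with low values (11 to 16). These sets were formed from the data and are not groups of the study. On days 2, 4 and 6 null replicates 3, 4 and 5 were of the high set. At day 0 null replicate 1 was of the middle set and replicates 2 and 3 of the high one. At day 8 there was no array of the high set: null replicate 1 was of the middle set and replicate 2 of the low one. Null changes from day 0 to day 8 thus compare unlike mixes of sets, and day and set cannot be fully told apart in them. The 8 pluripotency markers, which include Pou5f1 and Nanog, were all above the array floor at day 0 on every array. Their summed intensity was 42030 to 57179 in null and 54560 to 59136 in Fl/Fl at day 0, and 1171 to 1573 in null and 2431 to 5099 in Fl/Fl at day 8. On days 4 and 6 it was higher in null. It was 13656 to 18493 in null and 9003 to 9685 in Fl/Fl at day 4, and 4493 to 9156 in null and 1624 to 2045 in Fl/Fl at day 6.

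Expressed and silent genes were separated with an array floor, the 95th percentile of 38 olfactory receptor genes on the same array, which lay between 9.3 and 12.6 intensity units. Differences below are log2 changes of intensity + 4 with their standard error (SE) from limma, and adjusted p-values are limma's after Benjamini-Hochberg adjustment over all 18194 genes, with a threshold of 0.05. A fold change is 2 raised to such a difference, so it understates the change of dim genes.

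The highest rises in Fl/Fl cells were in the HoxD cluster, and the promoters of 4 of its genes are printed for that reason. Hoxd8 and Hoxd9 rose in Fl/Fl cells and Hoxd10 was high on a single Fl/Fl array, while Hoxd12 of the same cluster read the same on every array. Each stretch is the 250 bases before the annotated start (RefSeq, GRCm38.p6, 5' to 3'), and the capitals mark each CG, the dinucleotide that is dense in promoters bound by Polycomb complexes.
Hoxd8, chr2:74704365-74704614, + strand: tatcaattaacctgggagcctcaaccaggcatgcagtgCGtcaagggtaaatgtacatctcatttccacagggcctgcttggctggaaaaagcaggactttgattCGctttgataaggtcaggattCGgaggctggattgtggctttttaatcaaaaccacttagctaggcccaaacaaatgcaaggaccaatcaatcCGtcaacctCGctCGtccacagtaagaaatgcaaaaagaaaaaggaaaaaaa
Hoxd9, chr2:74697513-74697762, + strand: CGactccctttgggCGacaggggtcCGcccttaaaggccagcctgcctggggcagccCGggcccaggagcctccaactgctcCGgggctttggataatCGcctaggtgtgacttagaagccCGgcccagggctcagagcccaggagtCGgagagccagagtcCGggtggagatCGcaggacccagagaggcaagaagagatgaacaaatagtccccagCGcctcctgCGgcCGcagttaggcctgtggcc
Hoxd10, chr2:74691641-74691890, + strand: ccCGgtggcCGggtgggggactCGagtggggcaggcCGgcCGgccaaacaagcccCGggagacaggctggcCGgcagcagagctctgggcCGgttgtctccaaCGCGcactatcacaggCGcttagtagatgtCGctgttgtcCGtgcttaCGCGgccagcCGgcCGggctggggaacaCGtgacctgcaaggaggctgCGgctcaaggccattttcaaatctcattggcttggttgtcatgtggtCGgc
Hoxd12, chr2:74674763-74675012, + strand: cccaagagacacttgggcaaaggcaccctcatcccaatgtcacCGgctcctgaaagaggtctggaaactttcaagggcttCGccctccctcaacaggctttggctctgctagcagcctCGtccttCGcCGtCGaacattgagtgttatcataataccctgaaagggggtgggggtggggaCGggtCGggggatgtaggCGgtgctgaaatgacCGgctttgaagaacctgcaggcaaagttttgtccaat
CG reads the same on both strands. The Hoxd8 window holds 6 CG dinucleotides, a number that 50.4% of the 32851 promoter windows of all genes reach or pass. The Hoxd9 window holds 13 (31.5%), the Hoxd10 window 20 (17.9%) and the Hoxd12 window 10 (37.8%). The Hoxd8 window was thus the poorest in CG among these windows, and a relation of CG count to expression was not tested. Of the 33 measured genes, 19 had a window in this table, 21 windows in all, with a median of 13 CG dinucleotides against 6 over all windows. Among them the count ran from 2 in a window of Hoxd11 to 35 in that of Hoxa13, and neither of these genes was above the floor on any array. A count of CG describes the letters only and says nothing of binding.

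Most Hox genes stayed near the floor throughout. Of the 33 genes, 26 never passed an intensity of 20 on any of the 30 arrays, with values from 3 to 18. The other 7 were Hoxb3 and Hoxc4 of the 10 anterior genes (paralog numbers 1 to 4), Hoxa5 and Hoxd8 of the 9 central genes (5 to 8), and Hoxb9, Hoxc13 and Hoxd9 of the 14 posterior genes (9 to 13). By cluster they were 1 of 9 in Hoxa, 2 of 9 in Hoxb, 2 of 7 in Hoxc and 2 of 8 in Hoxd. Of all genes on the array, 60.5% passed 20 on at least 1 array. The median of the highest array was 10 over the Hox genes and 61 over all genes. Hoxa9, Hoxc10 and Hoxd12, posterior genes, read 6, 7 and 6 on every array. The shared probe sets were as low, at 4 to 5 for Hoxb8 with Hoxb7 and at 4 to 6 for Hoxd4 with Hoxd3.

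**Figure D1:**
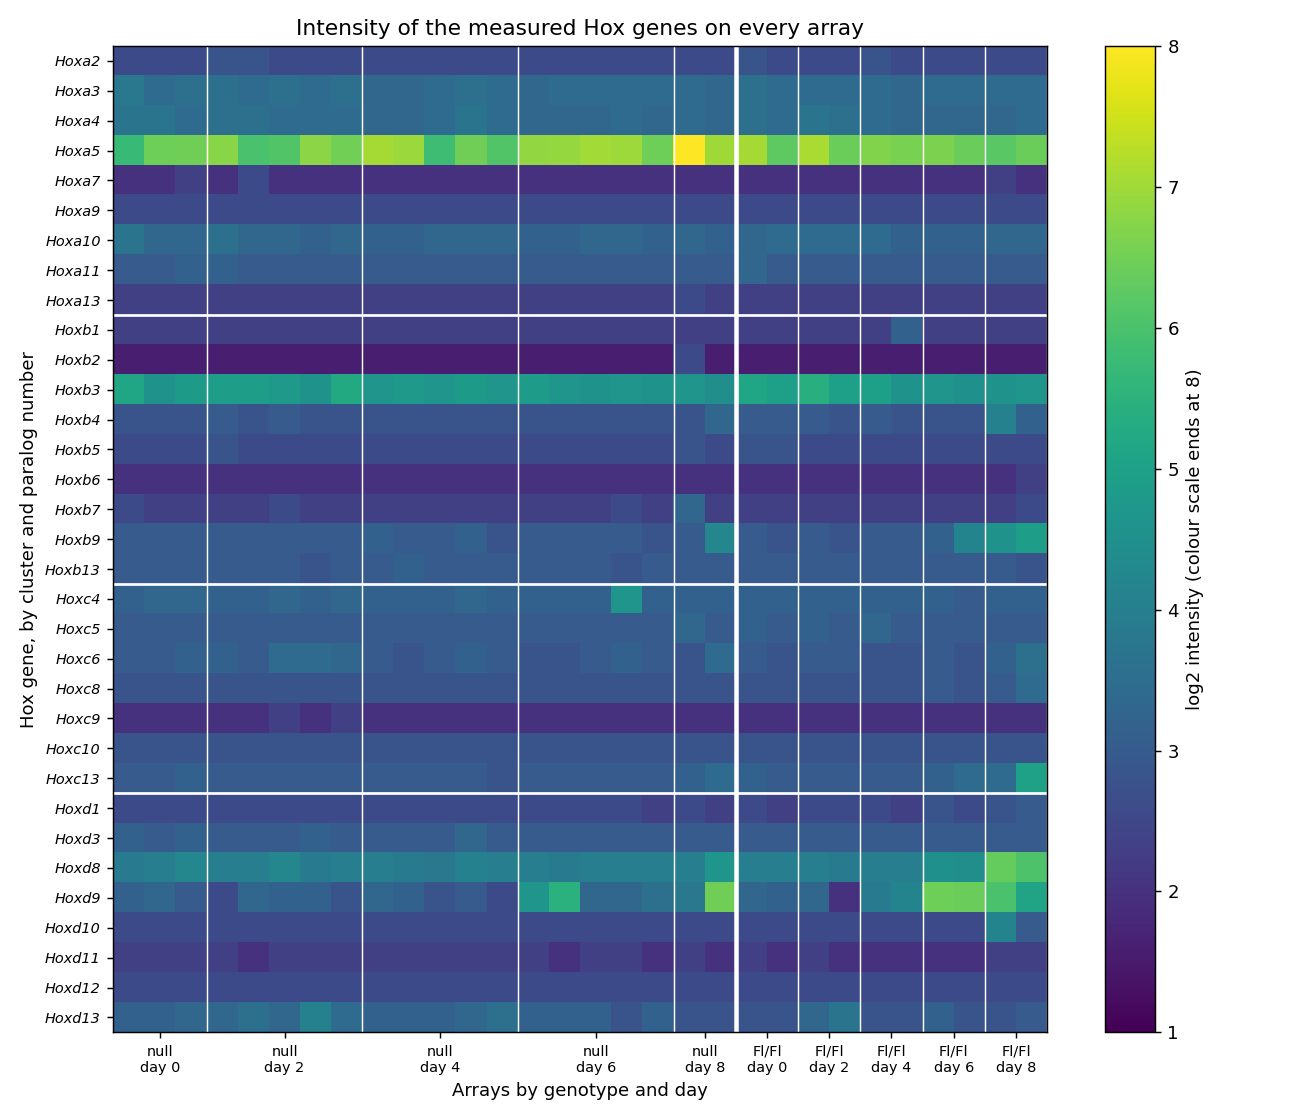
Log2 intensity of the 33 measured Hox genes (rows, by cluster and paralog number) on the 30 arrays (columns, null left and Fl/Fl right, days 0 to 8 within each, 1 column per array). Hoxa5 and Hoxb3 are bright on every array, and Hoxd8, Hoxd9 and Hoxb9 brighten on the late Fl/Fl arrays. In null, Hoxd9 brightens on some arrays of days 6 and 8, and Hoxd8 and Hoxb9 only in day 8 replicate 2 (25 and 19). The colour scale ends at 8, which the Hoxa5 value of 381 passes.

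A gene was counted above the floor in a group when it exceeded the floor on every array of the group. In null cells day 0 had 3 such genes (57.6% of all genes passed), day 2 had 4 (57.8%), day 4 had 4 (56.9%), day 6 had 6 (61.4%) and day 8 had 6 (59.9%). In Fl/Fl cells day 0 had 3 such genes (59.6%), day 2 had 4 (59.8%), day 4 had 6 (61.7%), day 6 had 6 (62.9%) and day 8 had 7 (61.8%). The share of Hox genes thus lay below that of all genes in every group. Hoxa5, Hoxb3 and Hoxd8 passed on all 30 arrays and 18 genes passed on none. This holds for the brightest probe set of each gene. The other probe sets of these genes read 6 to 7 for Hoxa5, 5 to 6 for Hoxb3 and 10 to 58 for Hoxd8 over all arrays. Hoxa3 and Hoxa4 entered the count at 10 to 14 and 10 to 13, close to the floor, and both read about the same on all days. By this rule 6 Hox genes were above the floor on at least 1 day in null (63% of all genes) and 8 in Fl/Fl (65.1%), and Hoxb9 and Hoxc13 made the difference.

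Passing the floor is not a rise, so each gene was also set against its own baseline, the highest of the 5 day 0 arrays of both genotypes. This measure was added after the data had been seen. In null cells 0 Hox genes were above 2 times that baseline on every array of a day, where 0.148%, 0.539%, 1.84% and 3.18% of all genes were at days 2, 4, 6 and 8. In Fl/Fl cells 0 were at days 2 and 4 (0.495% and 4.05% of all genes), Hoxd9 was at day 6 (7.25%), and Hoxb9, Hoxd8 and Hoxd9 were at day 8 (8.2%). More genes passed on single arrays. The share of all genes on single arrays was not computed, so these counts have nothing to be set against. On null day 6, replicates 1 and 2 passed for Hoxd9 and replicate 4 for Hoxc4, and on null day 8, replicate 1 passed for Hoxa5 and replicate 2 for Hoxb9 and Hoxd9. In Fl/Fl at day 6, replicate 1 passed for Hoxd9 and replicate 2 for Hoxb9 and Hoxd9. At day 8, replicate 1 passed for 5 genes (Hoxb4, Hoxb9, Hoxd8, Hoxd9 and Hoxd10) and replicate 2 for 4 (Hoxb9, Hoxc13, Hoxd8 and Hoxd9). No gene of the HoxA cluster was among them in Fl/Fl.

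Hoxd8 and Hoxd9 are neighbours in the middle of the HoxD cluster and act in the trunk and limbs. Hoxd8 rose late in Fl/Fl cells and stayed lower in null cells. On its brightest probe set it read 15, 16 and 19 in null at day 0, 15 to 19 at day 2, 14 to 17 at day 4, 15 to 16 at day 6, and 16 and 25 at day 8. In Fl/Fl it read 16 and 16 at day 0, 16 and 15 at day 2, 16 and 16 at day 4, 23 and 22 at day 6, and 82 and 66 at day 8. At day 6 and at day 8 both Fl/Fl arrays lay above all null arrays of the day, and on the days before the groups overlapped. At day 6 null was lower by a log2 difference of -0.42 (SE 0.102, adjusted p = 0.0105 by limma), and at day 8 by -1.69, a 3.22-fold difference (SE 0.122, adjusted p = 7.54e-09). Against day 0, Hoxd8 rose 3.88-fold by day 8 in Fl/Fl (log2 1.96, SE 0.122, adjusted p = 2.24e-10), while the change in null was 0.23 (SE 0.112, adjusted p = 0.134). The 2 changes differed by -1.73 (SE 0.166, adjusted p = 9.98e-07).

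The day 8 call of Hoxd8 between genotypes was kept when any 1 array was left out, with adjusted p of at most 2.13e-07, whereas the day 6 call had adjusted p = 0.124 without Fl/Fl day 6 replicate 1 and 0.163 without the null arrays of high Eif2s3y. The rise of 0.41 by day 6 in Fl/Fl (adjusted p = 0.0143) had adjusted p = 0.082 without Fl/Fl day 6 replicate 1. In null the day 8 change of Hoxd8 was 0.49 (adjusted p = 0.000892) once replicate 1 of that day was left out.

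The second probe set of Hoxd8 gave another course. It read 10 to 13 on the null arrays of days 0 to 4, 17, 12, 11, 12 and 11 at day 6, and 10 and 58 at day 8. In Fl/Fl it read 11 to 14 up to day 4, 45 and 38 at day 6, and 53 and 29 at day 8. So on this probe set Fl/Fl was already high at day 6, and null day 8 replicate 2 was as high as the Fl/Fl arrays. In a fit of all probe sets, null was lower by -1.46 at day 6 (adjusted p = 0.00504) and by -0.56 at day 8 (adjusted p = 0.63), and the day 8 change in null was 0.98 (adjusted p = 0.039). The 2 changes from day 0 to day 8 differed by -0.46 on it (adjusted p = 0.901), and by -1.10 (adjusted p = 0.128) when the probe sets of each gene were averaged. The probe sets therefore agree that Hoxd8 rose in Fl/Fl and disagree on null day 8 replicate 2. The name of the brightest one ends in _s_at, which marks probes shared by several transcripts, and that of the second does not. Which of them reads Hoxd8 mRNA better was not tested.

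Hoxd9 rose by day 6 in Fl/Fl cells and was lower in null cells on that day. It read 9, 10 and 8 in null at day 0, 6 to 10 at day 2, 6 to 10 at day 4, 25, 44, 10, 10 and 12 at day 6, and 14 and 90 at day 8. In Fl/Fl it read 10 and 9 at day 0, 10 and 4 at day 2, 15 and 18 at day 4, 87 and 85 at day 6, and 64 and 34 at day 8. At day 4 both Fl/Fl arrays lay above all 5 null arrays, but the difference of -0.78 did not pass the test (SE 0.464, adjusted p = 0.368). At day 6 null was 4.23-fold lower (log2 -2.08, SE 0.464, adjusted p = 0.00559) and the groups did not overlap. At day 8 the null arrays lay on either side of the Fl/Fl arrays, with a difference of -0.31 (SE 0.555, adjusted p = 1).

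Within Fl/Fl, Hoxd9 rose 6.67-fold by day 6 (log2 2.74, SE 0.555, adjusted p = 0.000704) and 3.77-fold by day 8 (log2 1.91, SE 0.555, adjusted p = 0.0102). Within null it rose 3.17-fold by day 8 (log2 1.66, SE 0.507, adjusted p = 0.0142), and the change by day 6 was 0.71 (SE 0.405, adjusted p = 0.204). The genotypes' changes did not pass the test of their difference, at -2.02 by day 6 (adjusted p = 0.168) and -0.25 by day 8 (adjusted p = 1). Single arrays weighed on these calls. The rise in null at day 8 rested on replicate 2, without which adjusted p = 0.637, and that in Fl/Fl at day 8 had adjusted p = 0.118 without Fl/Fl day 8 replicate 1. The day 6 difference had adjusted p = 0.0777 without Fl/Fl day 6 replicate 2.

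The day 6 difference of Hoxd9 also moved with the sets of null arrays. The 3 null arrays of high Eif2s3y read 10, 10 and 12 at day 6, and the other null arrays read 25 and 44. With the high set alone, null was lower by -2.62 (adjusted p = 4.32e-06), and without it by -1.27 (adjusted p = 0.387). The sign was the same in both, and every null array of day 6 was below both Fl/Fl arrays. At day 8 the null array that read 90 was of the low set, which has no array at day 0.

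Hoxd10, a posterior gene with roles in limb and spinal motor neurons, was high on a single array. It read 6 on every null array and on every Fl/Fl array up to day 6, then 18 and 8 in Fl/Fl at day 8. That gave a 1.62-fold rise in Fl/Fl (log2 0.70, SE 0.136, adjusted p = 0.000354) and a null value lower by -0.70 at day 8 (adjusted p = 0.00428). This SE averages the spread between 18 and 8 with groups that did not vary. It and the adjusted p-values thus understate the uncertainty at day 8. Without the null arrays of high Eif2s3y the adjusted p was 0.139. No day 8 array is of that set, so the difference stays -0.70 there and only the estimated spread and the adjustment move. Of the Fl/Fl day 8 arrays, replicate 1 alone was above the floor. Hoxd1, at the opposite end of the cluster, was also called at day 8, but at values of 5 to 8 on all arrays, below the floor. Hoxd3, Hoxd11 and Hoxd12 ran from 4 to 10 and Hoxd13 from 7 to 17, with 17 in null day 2 replicate 4.

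**Figure D2:**
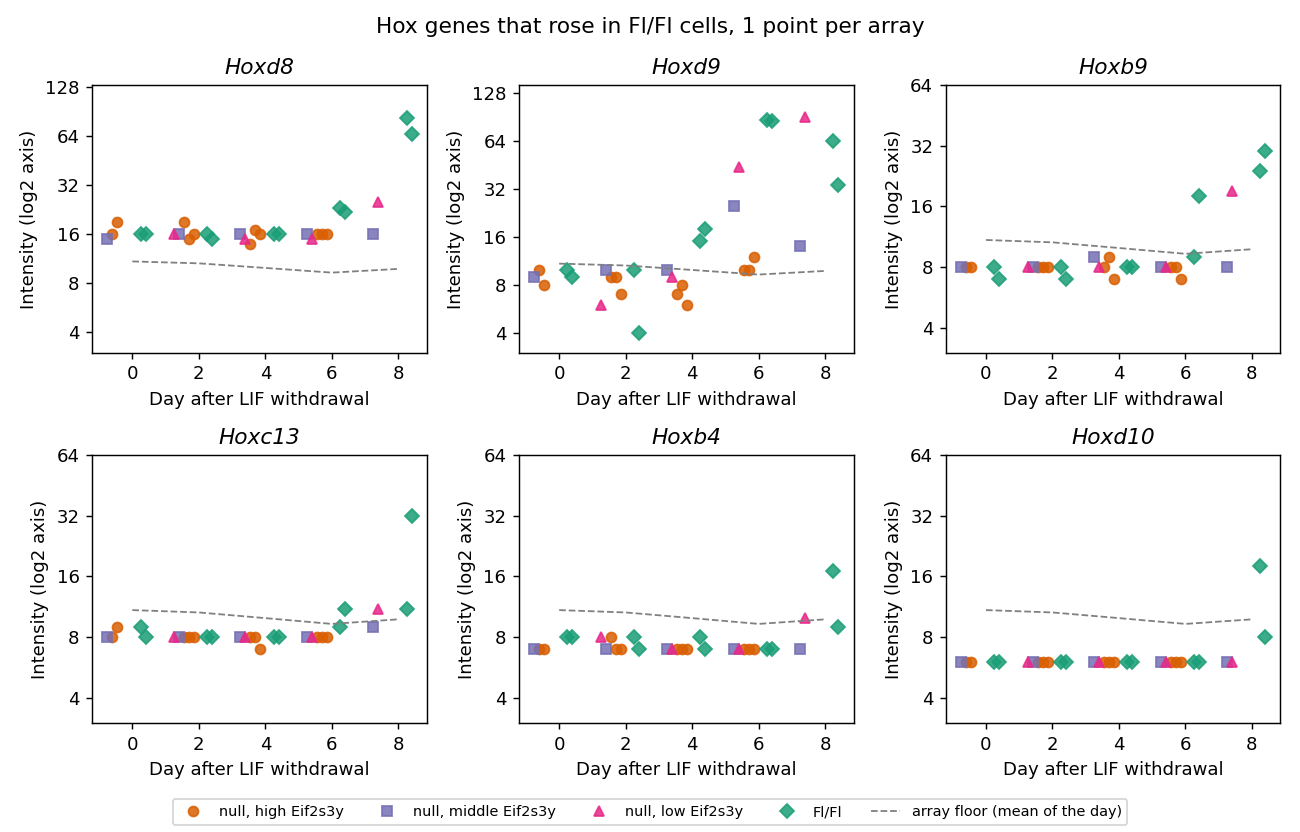
Intensity on a log2 axis of Hoxd8, Hoxd9, Hoxb9, Hoxc13, Hoxb4 and Hoxd10 against day, 1 point per array, null arrays drawn left of the day and marked by their Eif2s3y set, Fl/Fl arrays right of it. The dashed line is the mean array floor of the day. The Fl/Fl points of Hoxd8 reach 82 and 66 at day 8, and Hoxd9 is at 87 and 85 at day 6, where the null points of high Eif2s3y stay at 10 to 12.

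In the HoxB cluster Hoxb9, a posterior gene of trunk identity, rose in Fl/Fl cells. It read 8 on all null arrays at day 0, 8 at day 2, 7 to 9 at day 4, 7 to 8 at day 6, and 8 and 19 at day 8. In Fl/Fl it read 8 and 7 at day 0, 8 and 7 at day 2, 8 and 8 at day 4, 9 and 18 at day 6, and 24 and 30 at day 8. Only null day 8 replicate 2 among the null arrays was above the floor, and it was below both Fl/Fl arrays of that day. In Fl/Fl Hoxb9 rose 2.69-fold by day 8 (log2 1.43, SE 0.201, adjusted p = 1.04e-05), and in null the change was 0.47 (SE 0.184, adjusted p = 0.0548). Null was lower at day 8 by -0.89 (SE 0.201, adjusted p = 0.0147), with adjusted p = 0.274 without null day 8 replicate 1. Without that array the change of Hoxb9 in null was 0.94 (adjusted p = 0.00011). The difference of the changes was -0.96 (adjusted p = 0.114) and did not pass. The call at day 6 in Fl/Fl, 0.56 (adjusted p = 0.038), had adjusted p = 0.641 without Fl/Fl day 6 replicate 2, the array that read 18.

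Hoxb3, a hindbrain gene, was above the floor on every array but did not rise. Its values were 22 to 38 in null and 23 to 43 in Fl/Fl over all days, and none of its contrasts passed the test. The day 8 change was -0.25 in null (SE 0.147, adjusted p = 0.206) and -0.37 in Fl/Fl (SE 0.161, adjusted p = 0.0805). Its other probe set read 5 to 6 on every array. Hoxb4, known from blood stem cells and the hindbrain boundary, read 7 and 10 in null and 17 and 9 in Fl/Fl at day 8, and 7 to 8 on all earlier arrays. Its rise in Fl/Fl (log2 0.46, adjusted p = 0.00722) had adjusted p = 0.392 without Fl/Fl day 8 replicate 1. Hoxb1, the gene that the hindbrain segment r4 depends on, read 9 in Fl/Fl day 4 replicate 2 and 5 on the other 29 arrays. Hoxb2, Hoxb5, Hoxb6, Hoxb7 and Hoxb13 stayed between 3 and 10.

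In the HoxC cluster, Hoxc13, a gene of hair and nail, read 9 and 11 in null and 11 and 32 in Fl/Fl at day 8. Before that day it was between 7 and 9 in null and between 8 and 11 in Fl/Fl. Its rise in Fl/Fl was 1.86-fold (log2 0.90, SE 0.205, adjusted p = 0.0016), while null against Fl/Fl at day 8 was -0.73 (SE 0.205, adjusted p = 0.0604). Fl/Fl day 8 replicate 2 carried that height. Hoxc4 read 25 in null day 6 replicate 4 and 8 to 10 on all other arrays. Hoxc6 reached 12 and Hoxc8 reached 11 in Fl/Fl day 8 replicate 2, and both were called at day 8 in Fl/Fl (log2 0.33, adjusted p = 0.0465, and log2 0.29, adjusted p = 0.000268). The call of Hoxc6 was lost in 21 of 39 alternatives. Hoxc5, Hoxc9 and Hoxc10 stayed between 4 and 10.

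In the HoxA cluster 1 gene was bright. Hoxa5, which patterns neck and lung, read 53, 88 and 90 in null at day 0, 64 to 111 at day 2, 57 to 132 at day 4, 87 to 131 at day 6, and 381 and 128 at day 8. In Fl/Fl it read 132 and 77 at day 0, 138 and 86 at day 2, 102 and 97 at day 4, 98 and 85 at day 6, and 74 and 86 at day 8. The groups overlapped on days 0, 2, 4 and 6, and at day 8 both null arrays lay above both Fl/Fl arrays. The day 8 rise in null of 2.85-fold (log2 1.51, SE 0.391, adjusted p = 0.0045) had adjusted p = 0.197 without that array, and null against Fl/Fl at day 8 was 1.43 (SE 0.428, adjusted p = 0.0854). The other Hoxa5 probe set read 6 to 7 on all 30 arrays. The bright probe set of Hoxa5, like that of Hoxa4, is of the kind whose name (_x_at) marks probes that can also match other transcripts, and which of the readings is that of Hoxa5 mRNA was not tested. Hoxa3 and Hoxa4, at 10 to 14, were lower at day 6 than at day 0 in null, by -0.14 (adjusted p = 0.0392) and -0.20 (adjusted p = 0.00812). Without null day 0 replicate 1 the adjusted p was 0.38 for Hoxa3 and 0.0545 for Hoxa4. Hoxa2, Hoxa7, Hoxa9, Hoxa10, Hoxa11 and Hoxa13 were between 4 and 13.

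**Figure D3:**
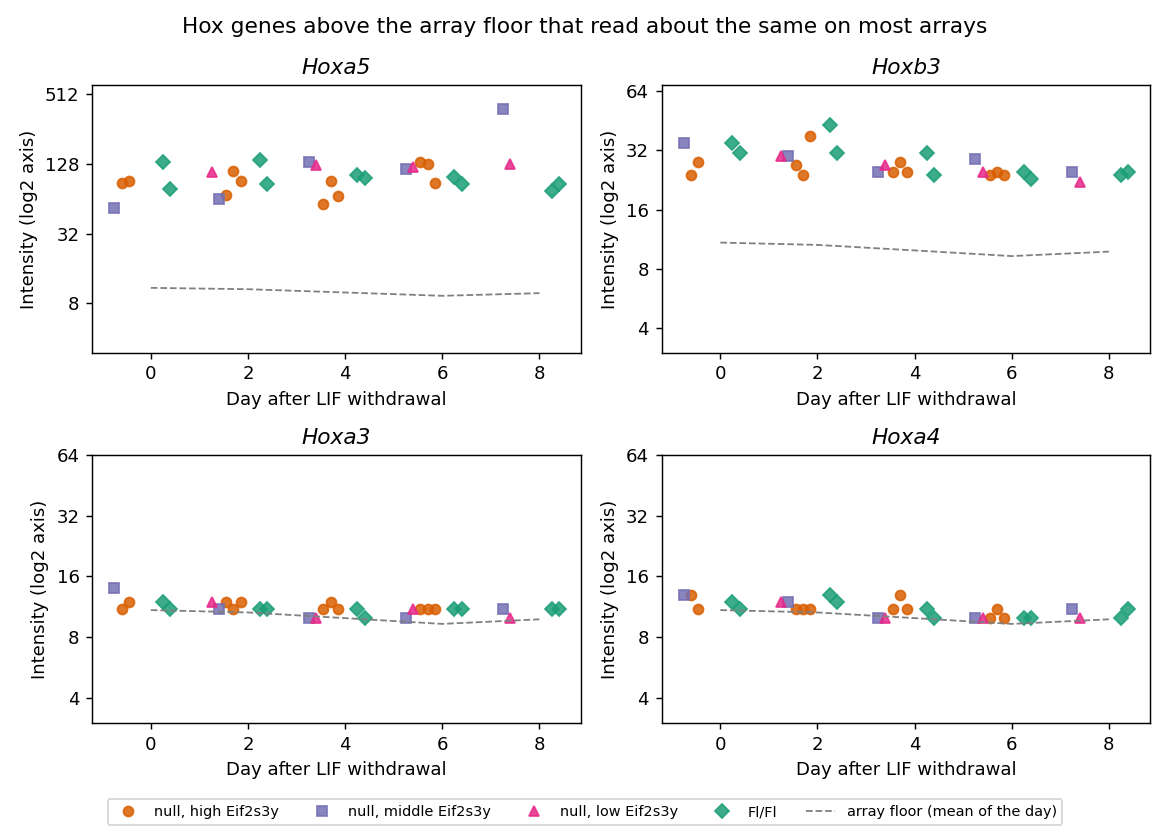
Intensity on a log2 axis of Hoxa5, Hoxb3, Hoxa3 and Hoxa4 against day, 1 point per array, null arrays left of the day by Eif2s3y set and Fl/Fl arrays right of it, with the mean array floor of the day dashed. Hoxa5 and Hoxb3 lie well above the floor on every array and Hoxa3 and Hoxa4 along it, and the single far point is Hoxa5 in null day 8 replicate 1 at 381.

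The calls over time were counted over all 33 genes and set beside the share of all genes called. In null, 0 Hox genes changed at day 2 (5.41% of all genes) and 0 at day 4 (14.7%) by limma. At an unadjusted p under 0.05 there were 2 and 3 Hox genes, beside 2944 and 4902 of all 18194 genes. At day 6, 2 fell (18% of all genes), Hoxa3 and Hoxa4, and at day 8, 4 rose and 1 fell (14.9% and 18.5%). Those at day 8 were Hoxd9, Hoxa5, Hoxb2 and Hoxa13 upward and Hoxa3 downward. The calls of Hoxb2 (6 and 3 at day 8, 3 at day 0) and Hoxa13 had adjusted p = 1 without null day 8 replicate 1, and that of Hoxa3 0.358 without replicate 2. In Fl/Fl, 1 fell by day 2 (1.91%). By day 4, 1 rose and 1 fell (8.01% and 10.5%), and by day 6, 3 rose and 1 fell (13.4% and 19.2%). By day 8, 10 rose and 1 fell (15% and 18.6%). Of the 11 calls at day 8 in Fl/Fl, 4 had both day 8 arrays above the floor (Hoxb9, Hoxc13, Hoxd8 and Hoxd9) and 3 had them above 20. The others, Hoxb5 among them at 6 against 7, lay in part or whole under the floor. Without Fl/Fl day 8 replicate 2, Hoxb6 had adjusted p = 1 and Hoxc6 adjusted p = 0.448. The median change over the 33 genes was 0 in all these contrasts, and that over all genes ran from -0.06 at day 6 in Fl/Fl to 0 at day 2.

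**Figure D4:**
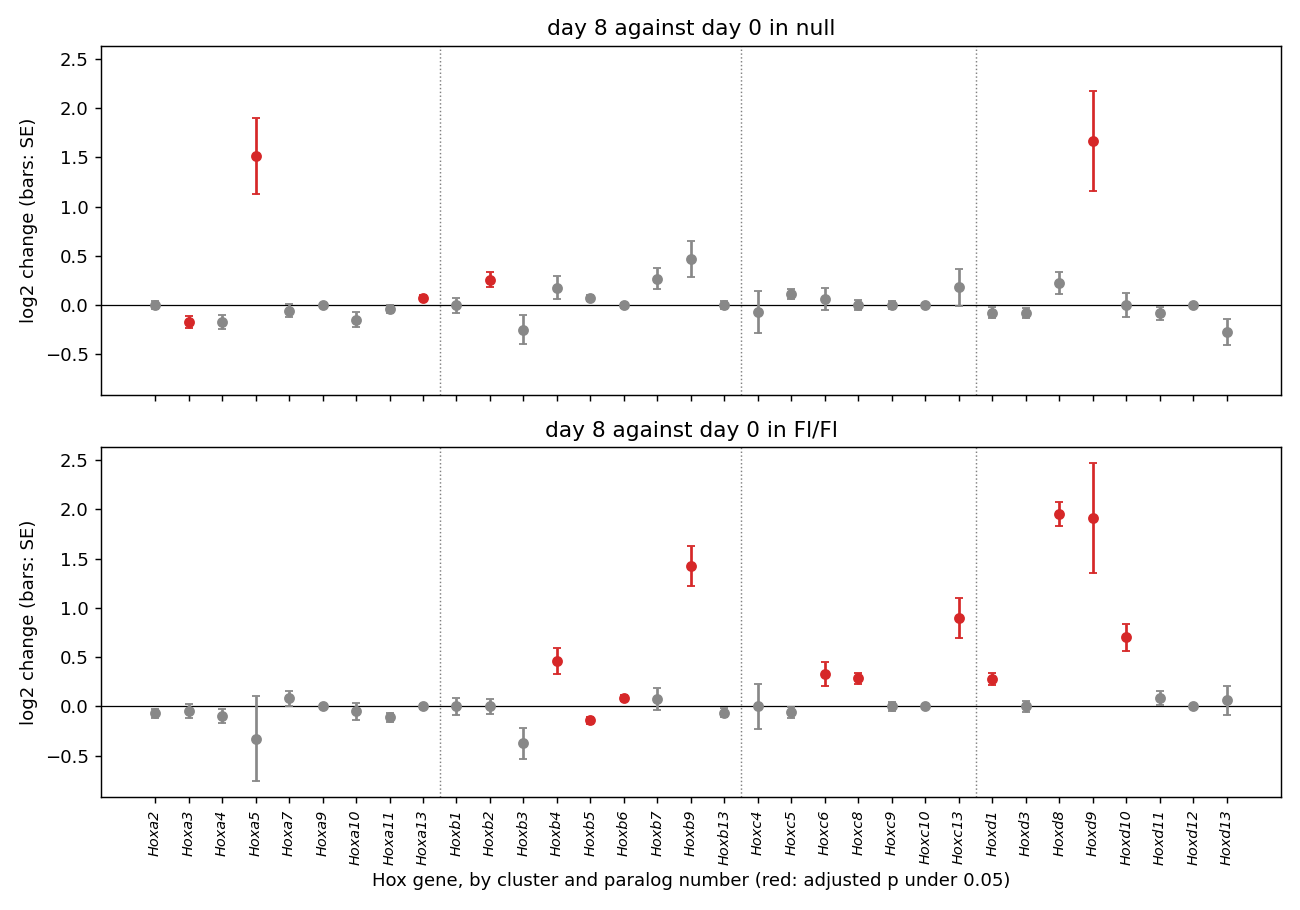
Log2 change of each measured Hox gene from day 0 to day 8 in null (top) and Fl/Fl (bottom), with SE as bars, in order of cluster and paralog number, dotted lines between clusters and calls in red. Hoxd8 stands at 1.96 in Fl/Fl and 0.23 in null, Hoxd9 at 1.91 and 1.66, and Hoxa5 at 1.51 in null.

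Between genotypes, every called Hox gene was lower in null. The counts were 1 at day 0 (0.929% of all genes were lower) and 0 at day 2 (0.621% called in either direction). At day 2, 0 Hox genes and 1755 of all genes had an unadjusted p under 0.05 by limma. Later counts were 1 at day 4 (7.43% lower), 2 at day 6 (6.46%) and 5 at day 8 (1.8%). The calls at days 0 and 4 were Hoxb5 (6 in null against 7 in Fl/Fl) and Hoxb1 (5 in null against 5 and 9 in Fl/Fl), both under the floor. The Hoxb5 call had adjusted p = 0.15 without Fl/Fl day 0 replicate 1, and the Hoxb1 call adjusted p = 1 without Fl/Fl day 4 replicate 2. Those at day 8 were Hoxb9, Hoxc8, Hoxd1, Hoxd8 and Hoxd10. Without the null arrays of high Eif2s3y, Hoxd8 alone was called (1.48% of all genes in either direction). No day 8 array is of the high set, so the day 8 differences stay the same there. Only the spread estimated from all arrays and the adjustment over genes move. The day 8 calls share the Fl/Fl day 8 arrays with the rises in Fl/Fl, so they are not independent of them. Averaged over the days, 3 were lower (15.5% of all genes), Hoxd8 by -0.41 (adjusted p = 5.84e-06), Hoxb9 by -0.25 (adjusted p = 0.0257) and Hoxc8 (adjusted p = 0.0227). Of these, Hoxb9 had adjusted p = 0.0862 without Fl/Fl day 6 replicate 2 and Hoxc8 0.0712 without Fl/Fl day 6 replicate 1. The day 8 call of Hoxd1 had adjusted p = 0.211 without Fl/Fl day 8 replicate 2. The day 8 count moved when either null array of that day was left out, and without replicate 2 the Hox calls went in both directions. Calls over all genes rose in both cases, so the move was not particular to Hox genes. Either fit leaves a lone null array at day 8.

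The change from day 0 to day 8 differed between genotypes for 3 Hox genes. It was lower in null for Hoxd8 and for Hoxd1, at -0.35 (adjusted p = 0.0308), as for 0.687% of all genes, and higher for Hoxb5, at 0.21 (adjusted p = 0.0343), as for 0.407%. The call of Hoxd1 had adjusted p = 0.19 without Fl/Fl day 8 replicate 2, and that of Hoxb5 0.122 without null day 8 replicate 1. For the changes from day 0 to days 2, 4 and 6, limma called 0 Hox genes (0.0769%, 1.42% and 1.79% of all genes). At an unadjusted p under 0.05 there were 2, 2 and 5 Hox genes, beside 901, 2022 and 2266 of all 18194 genes. Of the 3 genes called for the change to day 8, Hoxd8 alone was above the floor. limma's F test over all days called Hoxd8 (adjusted p = 1.18e-06) and Hoxd1 (adjusted p = 0.0253, and 0.133 without Fl/Fl day 8 replicate 2), with 4.94% of all genes called.

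The lists of genes that act with or on Hox genes were read in the same way. The cofactors of the Pbx, Meis and Pknox families bind DNA together with Hox proteins, and 8 of 9 were measured. Between day 8 and day 0, 2 rose and 1 fell in null (median 0.75), where 14.9% of all genes rose and 18.5% fell. In Fl/Fl 3 rose and 1 fell (median 0.66), where 15% of all genes rose and 18.6% fell. Meis2 read 29 and 143 in null and 134 and 109 in Fl/Fl at day 8, against 8 to 16 in null and 11 to 22 in Fl/Fl at day 0. Its rise was 4.28-fold in null (adjusted p = 0.00147) and 6.32-fold in Fl/Fl (adjusted p = 0.000357). The low reading of null day 8 replicate 1 recurs in Hoxd9 and Hoxb9. Meis3 was lower in null at day 4 (log2 -1.10, adjusted p = 0.0101) and Pknox1 higher (0.60, adjusted p = 0.0376).

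Among 16 genes known upstream of Hox expression, 14 were measured. Null was lower for 4 at day 4 (7.43% of all genes were), 2 at day 6 (6.46%) and 1 at day 8 (1.8%). Cdx2, a caudal factor that binds Hox clusters in the tail bud, read 10 to 11 in null and 32 and 68 in Fl/Fl at day 4, a log2 difference of -1.84 (SE 0.25, adjusted p = 4.39e-05). Cyp26a1, which degrades retinoic acid, read 4 to 5 in null and 490 and 703 in Fl/Fl on that day (adjusted p = 5.49e-05). Both groups had Cyp26a1 by day 6, at 435 to 1999 in null and 1105 and 1190 in Fl/Fl. Aldh1a2, which makes retinoic acid, read 7 on all null arrays and 26 and 45 in Fl/Fl at day 6 (log2 -1.80, SE 0.165, adjusted p = 2.7e-07), and 15 and 35 in null and 62 and 65 in Fl/Fl at day 8 (log2 -1.31, adjusted p = 0.000317).

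Evx1, a homeobox gene beside Hoxa13, was the one of 5 ParaHox and Evx genes that changed at days 4 to 8. It read 5 to 6 in null at day 4, 276, 218, 101, 115 and 101 at day 6, and 123 and 15 at day 8. In Fl/Fl it read 117 and 166 at day 4, 111 and 111 at day 6, and 10 and 11 at day 8. Null was 15.6-fold lower at day 4 (log2 -3.96, SE 0.44, adjusted p = 4.12e-06), and Evx1 thus appeared by day 4 in Fl/Fl and by day 6 in null. Its neighbour Hoxa13 stayed at 5 to 6 on every array. Evx2, beside Hoxd13, read 2 on all 30 arrays. Of 19 genes that flank the clusters without being Hox genes, 17 were measured, and between day 8 and day 0, 3 rose and 2 fell in null (14.9% and 18.5% of all genes) and 4 rose and 3 fell in Fl/Fl (15% and 18.6%). Skap2, outside the 3' end of HoxA, was lower in null at day 6 (134 ± 24.9, SD, n = 5, against 420 ± 14.8 in Fl/Fl, n = 2, adjusted p = 0.000446).

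The Polycomb and trithorax genes, which repress and activate the clusters, were also compared between day 8 and day 0. Of 22 measured Polycomb genes, 3 rose and 12 fell in null (14.9% and 18.5% of all genes) and 3 rose and 10 fell in Fl/Fl (15% and 18.6%). Of 11 trithorax genes, 2 rose and 7 fell in each genotype, beside the same shares of all genes. Eed, a core subunit of PRC2, averaged 1457 ± 112 at day 8 and 4887 ± 308 at day 0 in null (SD, n = 2 and 3), and 1470 ± 129 at day 8 and 3969 ± 817 at day 0 in Fl/Fl (n = 2 each). Between genotypes, 5 Polycomb genes were higher and 2 lower in null at day 6 (3.47% and 6.46% of all genes), among them Phc1 (log2 1.47, adjusted p = 4.93e-07), Cbx7 (2.13, adjusted p = 1.76e-05) and Bmi1 (-2.11, adjusted p = 0.000137). These are subunits of PRC1.

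Markers of other cells moved with the same arrays. Of 22 fibroblast and feeder cell markers, 21 were measured, and their summed intensity at day 8 was 49479 and 108926 in null replicates 1 and 2 and 107509 to 110261 in Fl/Fl. At day 0 it was 4697 to 6266 in null and 9652 to 10749 in Fl/Fl, and at day 6 32712 to 43986 in null and 78253 to 83972 in Fl/Fl. At day 8, each null array had 14 of the 21 above the floor, not all of them the same genes, and the Fl/Fl arrays had 17 to 18. Col3a1, a fibrillar collagen, read 9 and 475 in null and 2045 and 2755 in Fl/Fl at day 8, so replicate 2 of null was the higher here too, as for Hoxd9 and Hoxb9. Col1a1 read 189 and 475 in null and 6250 and 6961 in Fl/Fl on that day. The summed level of 7 neural markers was 596 to 1435 in null and 1036 to 1103 in Fl/Fl at day 8, and that of 6 endoderm markers 103 to 385 in null and 202 to 258 in Fl/Fl. That of 6 mesoderm markers was 6011 and 452 in null replicates 1 and 2 and 423 to 685 in Fl/Fl. At day 4 the mesoderm sum was 226 to 808 in null and 3236 to 3291 in Fl/Fl. At day 6 it was 2741 to 10872 in null and 3201 to 4297 in Fl/Fl. In bulk RNA, fewer cells of a type and less RNA per cell cannot be told apart, and the part of these markers in the Hox values was not tested.

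**Figure D5:**
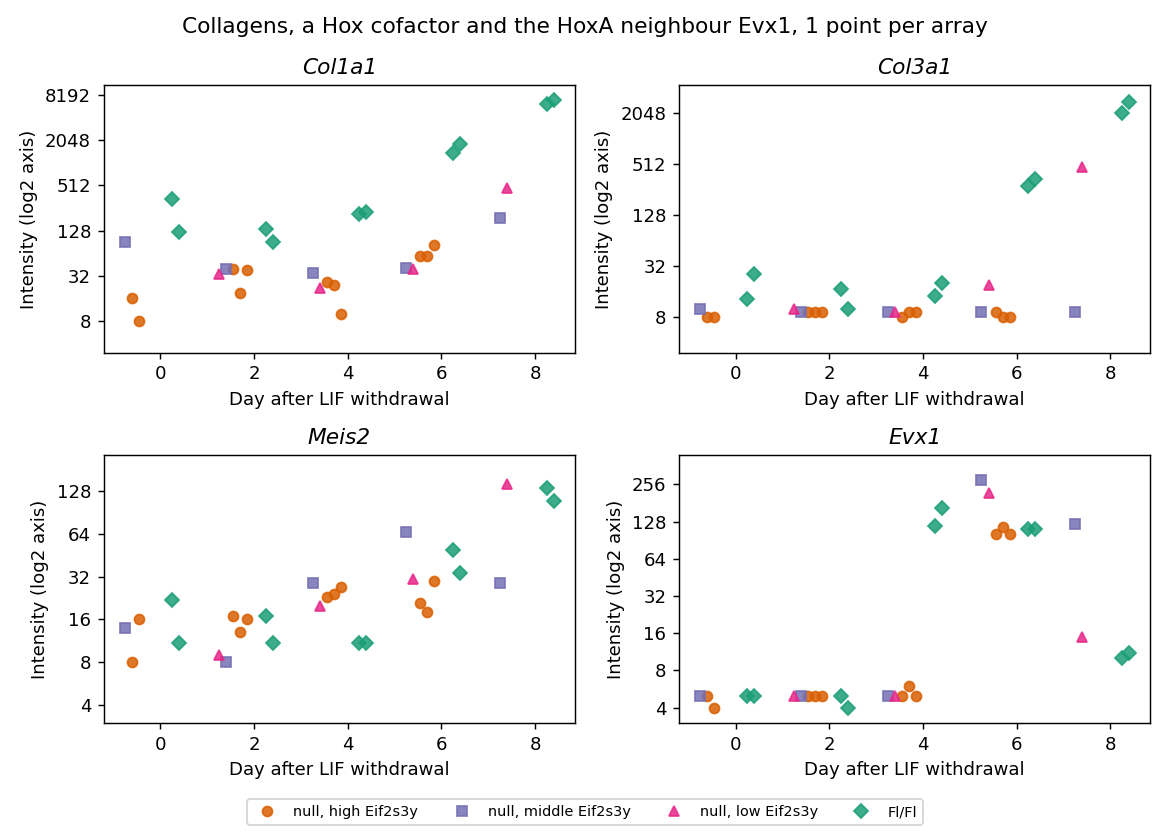
Intensity on a log2 axis of the collagens Col1a1 and Col3a1, the cofactor Meis2 and the HoxA neighbour Evx1 against day, 1 point per array, null arrays left of the day by Eif2s3y set and Fl/Fl arrays right of it. At day 8 null replicate 2 (low Eif2s3y) reads 475 for Col3a1 and 143 for Meis2, and replicate 1 (middle) 9 and 29, while Evx1 is at 123 in replicate 1.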

How the data were processed

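RNA of 30 samples was read on 30 Affymetrix arrays. The authors deposited, for each probe set, a linear intensity in whole numbers; per the labels' protocols, Trizol-extracted total RNA was made into biotinylated cRNA. Background correction and normalization: not given in the sources used here. Array means of 331.8 to 363.6 differ little, so no further scaling was applied. Of 45101 probe sets, 34958 named 1 gene in the platform annotation, 932 named several and 9211 none; the first were matched to GRCm38.p6 by gene ID (34754 matched, 0 symbols changed), and the brightest probe set by mean log2 value stood for each of 18194 genes. Of the measured Hox genes, 22 had 1 probe set and 11 several, and of the 15 further probe sets 1 passed an intensity of 20 (the second one of Hoxd8).

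Values were taken as log2(intensity + 4), 4 being the 5th percentile. With limma 3.58.1 in R 4.3.3, all 30 arrays entered a fit with a mean for every group and 20 residual degrees of freedom, followed by two-sided moderated tests and Benjamini-Hochberg adjustment over all genes at 0.05; the fit was tested on simulated data. Where the number of arrays in a group is 2, it limits the precision. The members, the lists of related genes and markers, and the tests were chosen with earlier results of these data known. Every Hox gene was reported, with values per array for those above the floor or called; of the other lists, members with the smallest adjusted p were named, and some further genes (Eed, Evx2, Col3a1, Col1a1) after their values were seen. Alternatives were the pseudocount, quantile and median scaling, the mean of probe sets, filters on dim genes, other floors, the replicate number as a block, null sets by Eif2s3y and leaving out each array. Protein sequences were not used here.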

Additional observations from a re-analysis of the deposited data

Results flagged for a closer look

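Of 22 gene and day groups of 5 arrays, 9 had a highest or lowest array far from the rest. Chance gives about 1 in 20 for continuous values, a rate that does not hold for these tied whole numbers, where a step of 1 unit is enough. All are null groups, since Fl/Fl had 2 arrays a day, and most differ from the rest by a few whole units near the floor. Hoxc4 read 25 in null day 6 (replicate 4, 9 on the others) and 10 as its highest value in null day 4. Hoxd13 read 17 as its highest value in null day 2 and 7 as its lowest in null day 6. Hoxb3 read 29 as its highest in null day 6. Hoxd8 read 19 as its highest in null day 2 and 15 as its lowest in null day 6. Hoxb9 read 7 as its lowest in null day 6, and Hoxc13 read 7 as its lowest in null day 4.

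The change from day 0 to day 8 differed between null and Fl/Fl by -1.73 for Hoxd8, by -0.35 for Hoxd1 and by 0.21 for Hoxb5, and limma's F test over the days gave adjusted p = 1.18e-06 for Hoxd8 and adjusted p = 0.0253 for Hoxd1. Hoxd1 and Hoxb5 lay below the array floor.

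Outside the measured Hox genes, the antisense transcript Hoxb5os read 12 in null day 8 replicate 1. Hoxa5 (381), Hoxb2 (6) and Hoxb7 (10) had their highest values on the same array.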

How the results depend on the processing

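Of the 1632 recomputed values of single calls, 1494 kept direction and side of the threshold and 138 kept direction only. F test calls have no direction and were judged by the threshold alone. Most alternatives left out 1 array, and where it lay in neither group compared, the difference could not move. The counts therefore overstate how stable the calls were. Counts above the floor, in the order null day 8 (main 6), null any day (6), Fl/Fl day 8 (7) and Fl/Fl any day (8), were 1, 1, 2 and 3 with a fixed 50; 1, 1, 0 and 0 with 100; 0, 0, 3 and 3 by own baseline; with the 99th percentile 3 in both null counts and 5 in Fl/Fl on any day. At day 0 (main 3 each) null had 1 with 50, 0 with 100, 5 with the mean of probe sets and 6 without high Eif2s3y arrays, and Fl/Fl 1 and 0. Leaving out 1 array gave 3 to 4 (null day 0), 6 to 10 (null day 8 and any day, 10 without null day 8 replicate 1), 3 to 5 (Fl/Fl day 0), 9 to 11 (Fl/Fl day 8) and 8 to 11 (Fl/Fl any day).

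Calls of null against Fl/Fl were, at day 0, 0 after centring, without the 40% dimmest genes and with the replicate block; at day 2, 1 with the high Eif2s3y arrays only; at day 4, 2 after centring or with those only and 0 without them or the dimmest; at day 6, 1 after centring and 0 without high arrays; at day 8, 1 without the dimmest or the high arrays; averaged, 1 with the replicate block. Without the dimmest genes, calls were 2 at day 8 in each genotype, 2 at day 6 in Fl/Fl, 0 at day 6 in null and 1 by F test. Day 6 in null gave 1 after quantile scaling, 0 after centring, 4 without and 0 with only the high arrays, and the F test 5 after quantile scaling. With 1 array left out the ranges were 0 to 1, 0 to 0, 1 to 2, 0 to 4 and 4 to 13 at days 0 to 8, 2 to 9 averaged, 9 to 12 and 3 to 6 (days 8 and 6 in Fl/Fl), 4 to 7 and 0 to 4 (null) and 2 to 9 (F test); a lone array left is assumed to vary like the other groups. Same-numbered arrays correlated at -0.196 to 0.272 in their deviations from group means. In groups of 2 arrays these deviations mirror each other, so this cannot settle whether the numbers pair the arrays. The main fit used no pairing. High arrays alone gave no day 8, averaged or F test value. The causes were not tested. When a null day 8 array was left out, calls over all genes at day 8 rose as well. Signal near the floor and groups of 2 arrays limit all of this. Null day 8 replicate 2, left out, gave the 13 at day 8 and both values of 9; Fl/Fl day 6 replicate 2 gave the 0 at day 6 and either Fl/Fl day 8 array the 4. Null day 0 replicate 1 gave the 0 and replicate 2 the 4 at day 6 in null, Fl/Fl day 0 replicate 1 and null day 0 replicates 2 and 3 the 0 at day 0. For the floor, Fl/Fl day 0 replicate 2 gave the 5 and Fl/Fl day 8 replicate 1 the 11 at day 8.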
